A study of Mus musculus with 2 samples.

Results

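Claudins are the membrane proteins that set which ions and how much water pass between epithelial cells at the tight junction. The claudins described here were 10 family members that line the kidney tubule and its corpuscle: Cldn1, Cldn2, Cldn3, Cldn4, Cldn7, Cldn8, Cldn10, Cldn14, Cldn16 and Cldn19. They were found by gene symbol, through the GENCODE annotation of mm10 matched on gene identifier, and all 10 were present among the 43346 gene rows of each library. Polyadenylated RNA had been sequenced from whole kidney of a 10 week old female mouse of the inbred strain C57BL/6J. There was 1 group, with 2 libraries that the labels call technical replicates 2 and 1 of 1 tissue sample, named library 2 and library 1 here. No treatment or genetic change is given in the labels for either. Library 2 is dated to 2015 and came after the study's first publication, of which it was no part. Every SD and every comparison below is therefore technical, between libraries and not between animals.

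Each nephron segment carries its own claudins, and these give the segment its leakiness. The proximal tubule is a leaky epithelium built around Cldn2 and Cldn10, the thick ascending limb of Henle's loop passes sodium, calcium and magnesium between its cells through Cldn10, Cldn16 and Cldn19, and the collecting duct is tight. A claudin crosses the membrane several times, and its first extracellular loop lines the pore between cells.

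The 10 members share a stretch of coding sequence in the part that encodes this first loop, printed here for 9 of them because it is what relates the genes that the results compare. Each line gives 69 bases of the coding strand, 5′ to 3′, from the GENCODE M21 transcripts on mm10. Capitals mark the letters GGNCTNTGG, or GGNTTNTGG in Cldn8, where N is any base. GGNCTNTGG had no match in Cldn8-201, and the second letters were taken for that gene alone, so its match is no separate finding. Cldn16-202 had 2 matches to GGNCTNTGG, of which the first is printed.
Cldn2-201: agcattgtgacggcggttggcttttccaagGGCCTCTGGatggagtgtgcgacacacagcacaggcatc
Cldn10-201: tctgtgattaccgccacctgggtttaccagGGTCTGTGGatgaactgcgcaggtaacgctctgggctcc
Cldn16-202: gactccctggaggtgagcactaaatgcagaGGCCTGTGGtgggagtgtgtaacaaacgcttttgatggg
Cldn14-201: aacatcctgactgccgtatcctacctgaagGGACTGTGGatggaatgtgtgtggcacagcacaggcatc
Cldn3-201: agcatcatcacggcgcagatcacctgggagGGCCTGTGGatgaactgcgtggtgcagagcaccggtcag
Cldn4-201: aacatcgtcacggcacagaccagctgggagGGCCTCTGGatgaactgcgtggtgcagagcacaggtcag
Cldn7-201: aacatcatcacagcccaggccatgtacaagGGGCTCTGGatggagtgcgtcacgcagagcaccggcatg
Cldn8-201: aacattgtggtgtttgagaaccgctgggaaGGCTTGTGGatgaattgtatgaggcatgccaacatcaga
Cldn1-201: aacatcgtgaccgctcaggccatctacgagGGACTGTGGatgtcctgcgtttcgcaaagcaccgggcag
Among the stretches printed, the capital letters began at base 145 of the coding sequence in Cldn1, Cldn2, Cldn4, Cldn7, Cldn8 and Cldn14. They began at base 142 in Cldn3, at base 136 in Cldn10-201 and at base 133 in Cldn16. The letters GGNCTNTGG were searched on the coding strand of 20555 mouse coding sequences and were present in 3787 of them (18.4%), and GGNTTNTGG was present in 11.5%, so either match alone is common. The stretches lie at chrX:139808822-139808890 for Cldn2, chr14:118788262-118788330 for Cldn10-201 and chr5:134986556-134986624 for Cldn3, all on the plus strand. Those of Cldn4 (chr5:134946563-134946631), Cldn14 (chr16:93919774-93919842), Cldn8 (chr16:88562853-88562921) and Cldn1 (chr16:26371444-26371512) are on the minus strand. The stretch of Cldn7 is at chr11:69966041-69966109 on the plus strand, and that of Cldn16 spans an intron between chr16:26463588 and chr16:26474246, also on the plus strand.

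Over their whole coding sequences the members were far apart. With both Cldn10 forms included, the identity of the 54 pairs between different members had a median of 51.9%, from 46.3% to 69.4%. Cldn3 and Cldn4 were the closest pair at 69.4% and lie 39.3 kb apart on chromosome 5, where they encode the receptors of a Clostridium enterotoxin. Cldn7 and Cldn1 came next at 67.0%. Cldn1 and Cldn16 are neighbours as well, 91.3 kb apart on chromosome 16, where Cldn8 and Cldn14 also lie. No member was found to share a stretch of 95% identity over 50% of its length with another gene. This rule does not cover shorter stretches, over which reads can still be shared. Cldn19-201 was identical to the antisense gene Gm12927 over 9.85% of its length. Cldn3-201 was identical to the antisense gene Wbscr25 over 3.18%.

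The libraries differed as a whole, and this touches every comparison below. Expected counts, the estimated number of reads of a gene, summed to 20720537 in library 2 and 28263730 in library 1. Mitochondrially encoded genes held 19.8% of the TPM sum (the deposited level per length, scaled to a fixed sum) in library 2 and 51.7% in library 1. Genes at TPM 1 or more numbered 13223 in library 2 and 9532 in library 1. The log2 ratio of library 2 over library 1 followed the GC content of the transcript over 11092 genes, with a Spearman rho of 0.918 given as a description. The sources used here do not state whether counting used the strand of the reads.

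The 10 claudins summed to 700.2 TPM in library 2, against 434.8 TPM in library 1, a mean of 567 ± 188 TPM (SD, n = 2). With mitochondrial genes left out of the TPM sum the order turned, and library 1 had the higher summed level. By TPM 8 members were higher in library 2, and 7 were with mitochondrial genes left out. Cldn10, Cldn2 and Cldn8 led, in this order, in both libraries. These 3 genes held 82.4% of the claudin TPM in library 2 and 92.4% in library 1. Of the 10 members, 9 reached TPM 1 in library 2 and 7 in library 1. The 7 that did so in both were Cldn10, Cldn2, Cldn8, Cldn1, Cldn19, Cldn7 and Cldn16, while 21.6% of all gene rows and 41.7% of protein-coding genes did so. By mean TPM the order was Cldn10, Cldn2, Cldn8, Cldn1, Cldn19, Cldn7, Cldn16, Cldn4, Cldn3 and Cldn14. Of the 9 pairs of neighbours in this order, Cldn2 over Cldn8 and Cldn8 over Cldn1 had library values that did not overlap. The other 7 pairs overlapped across the libraries. Within a library, 6 of the 9 pairs stood in this order in both, and the 3 whose order differed were Cldn1 and Cldn19, Cldn19 and Cldn7, and Cldn7 and Cldn16. In whole kidney RNA, fewer cells of a segment and less RNA per cell cannot be told apart.

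**Figure D1:**
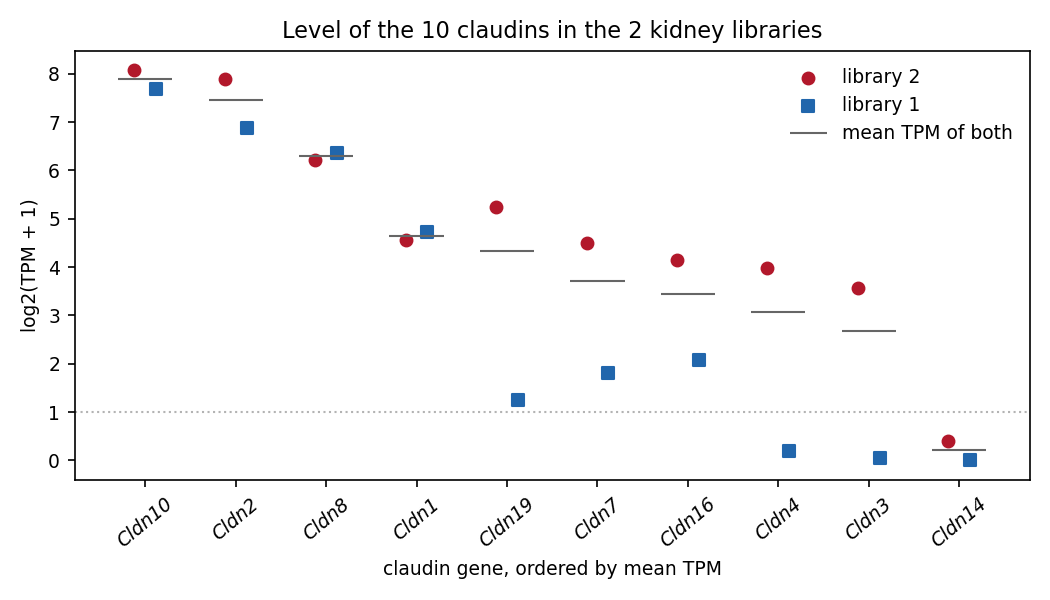
Level of each claudin on a log2(TPM + 1) scale, in library 2 (circles) and library 1 (squares), with the mean TPM of both as a bar and TPM 1 as a dotted line. Cldn10, Cldn2 and Cldn8 lie at the top in both libraries, and the values spread apart for Cldn19, Cldn7, Cldn16, Cldn4 and Cldn3, of which Cldn4 and Cldn3 are under the line in library 1.

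For the comparison between the libraries, expected counts were scaled by TMM (edgeR) and compared by a two-sided exact binomial test with Benjamini-Hochberg adjustment over 15553 genes with at least 10 counts in all. Calls needed at least a 2-fold ratio besides an adjusted p below 0.05. With 1 library on each side the test covers counting error only, has no replicate check, and compares these libraries and not conditions. It called 60.5% of all genes tested, 35.5% higher and 24.9% lower in library 2. Of the 10 members 9 were tested, and 5 (55.6%) were called higher and 2 (22.2%) lower in library 2, or 77.8% in all. With 9 genes these shares were not tested against those of all genes. Cldn14 did not reach 10 counts. The median log2 ratio was 1.34 over the 9 tested members and 0.12 over all genes tested. Scaled by total counts in place of TMM, the median of all genes moved to 1.02, and the calls over all genes moved to 7644 higher and 710 lower, against 5528 higher and 3875 lower with TMM. On that scale 5 members were called higher and 0 lower, beside 49.1% and 4.57% of all genes. By the adjusted p alone, with TMM and no fold line, all 9 tested members passed, 5 higher and 4 lower, and so did 83.5% of all genes (44.3% higher and 39.2% lower).

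In the proximal tubule, Cldn2 forms a pore for sodium ions and water. It had 235 TPM in library 2, against 116 TPM in library 1, a mean of 176 ± 83.9 TPM (SD, n = 2). Counts were 10994 in library 2 and 10217 in library 1, the most of any member in both. The TMM-scaled ratio of counts was 0.784 (95% counting interval 0.764 to 0.806), under the 2-fold line and not called, and the log2 ratio of -0.35 turned to 0.55 when total counts set the scale. Cldn2-201 made up 99.5% of the gene's TPM in library 2 and 99.7% in library 1. Proximal tubule markers (Slc34a1, Lrp2, Cubn, Slc5a2, Slc5a12, Miox) were at TPM 1 or more in both libraries for 6 of 6, with none at 0. They summed to 4191 TPM in library 2 and 458 TPM in library 1, though not all moved alike. Miox (2196 TPM in library 2, 63.5 TPM in library 1) and Slc34a1 (1337 TPM, 93.5 TPM) carried most of the library 2 sum. On TMM-scaled counts the log2 ratios were 2.48 (Slc34a1), 4.13 (Slc5a2) and 3.73 (Miox). Those of Lrp2, Cubn and Slc5a12 were -0.32, -0.95 and -1.51. The part of these markers in the Cldn2 values was not tested.

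Cldn10 is a single gene with a pair of start sites that make claudins of opposite selectivity. The upstream start gives the claudin-10a type, an anion pore of the proximal tubule. The downstream start gives the claudin-10b type, a sodium pore of the thick ascending limb. The first exons differ, and the coding parts of the later exons are the same. Cldn10-203 also runs further at its 3′ end, to base 118875489, against 118874524 in Cldn10-201. The coding parts of the first exons are printed here because they tell the encoded claudins apart. Both are on the plus strand of mm10, at chr14:118788157-118788370 for Cldn10-201 and chr14:118854990-118855209 for Cldn10-203, and capitals mark the start codon.
Cldn10-201: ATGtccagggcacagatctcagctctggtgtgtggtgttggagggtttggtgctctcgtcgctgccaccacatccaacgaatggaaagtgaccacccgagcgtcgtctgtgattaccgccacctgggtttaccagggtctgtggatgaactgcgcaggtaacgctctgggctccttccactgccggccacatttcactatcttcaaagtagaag
Cldn10-203: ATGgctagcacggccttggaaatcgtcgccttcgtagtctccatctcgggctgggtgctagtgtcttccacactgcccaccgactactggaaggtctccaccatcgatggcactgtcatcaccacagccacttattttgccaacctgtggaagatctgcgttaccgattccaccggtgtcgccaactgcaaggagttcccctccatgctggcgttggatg
Aligned to each other, these coding parts of the first exons were identical in 116 of 227 columns (51.1%), while the whole coding sequences were 84.1% identical. The letters GGNCTNTGG had no match in Cldn10-203.

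The gene as a whole had 268 TPM in library 2, against 205 TPM in library 1, a mean of 236 ± 45.0 TPM (SD, n = 2). It was the highest of the members in both libraries, at rank 404 of all genes in library 2 and rank 193 in library 1. With mitochondrial genes left out of the sum, the order of the libraries turned, to 335 TPM in library 2 and 424 TPM in library 1. Counts of 4871 in library 2 and 6201 in library 1 gave a ratio of 0.573 (95% counting interval 0.551 to 0.595), not called. The log2 ratio of -0.80 became 0.10 on total counts and 0.28 once the GC trend was removed.

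The upstream form led in both libraries. Cldn10-201 held 85.1% of the gene's TPM in library 2 and 97.3% in library 1. Cldn10-203, the downstream form, held 14.9% in library 2 and 2.63% in library 1, or 39.9 TPM and 1273 counts in library 2, against 5.38 TPM and 321 counts in library 1. The downstream form thus had the larger share and the higher level in library 2. Its first exon held 65.7% GC, against 48.8% in the first exon of Cldn10-201, and over whole transcripts GC was 49.8% against 44.5%. Cldn10-203 is also longer, at 2128 bases against 1148 bases, with a longer 3′ end. Reads of that end can count toward Cldn10-203 without covering its start site. The parts of GC content and of the 3′ end in the shift of share were not tested.

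The remaining claudins of the thick ascending limb were low. Cldn16 and Cldn19 act together in the paracellular uptake of calcium and magnesium, and in people their loss causes a familial magnesium-wasting disease with kidney calcification. Cldn14 blocks this route and is induced through the calcium-sensing receptor. Together the 3 genes had 53.8 TPM in library 2, against 4.61 TPM in library 1.

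Cldn16 had 16.6 TPM in library 2, against 3.24 TPM in library 1, a mean of 9.94 ± 9.48 TPM (SD, n = 2). On 269 counts in library 2 and 77 counts in library 1 it was called higher in library 2, at 2.55-fold (95% counting interval 1.97 to 3.33, adjusted p = 2.00e-14, exact binomial test on TMM-scaled counts). It was also called higher with the GC trend removed, at a log2 ratio of 1.49. Its leading transcript differed: Cldn16-202 held 100% in library 2 and 5.23% in library 1, while Cldn16-201 held 0% in library 2 and 94.8% in library 1. Both transcripts carry the same coding sequence of 705 bases, so the difference lies in the untranslated parts and rests on 77 counts in library 1.

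Cldn19 had 36.8 TPM in library 2, against 1.37 TPM in library 1, a mean of 19.1 ± 25.1 TPM (SD, n = 2). The 26.9-fold ratio of TPM was far above the ratio of counts. With 1032 counts in library 2 and 168 counts in library 1, the TMM-scaled ratio was 4.48 (95% counting interval 3.80 to 5.30, adjusted p = 1.65e-98, exact binomial test), called higher in library 2. Length and scaling both enter TPM: Cldn4, a gene with 1 transcript, had a TPM ratio of 105 beside its count ratio of 40.8. The transcript to which reads of Cldn19 were assigned differed as well. Cldn19-201, of 924 bases, held 70.1% of the gene's TPM in library 2 and 0% in library 1. Cldn19-202, of 4168 bases, held 29.9% in library 2 and 100% in library 1, and the mean transcript length was 1894 bases in library 2 and 4168 bases in library 1. The transcripts share the first 626 bases of their coding sequences, which run to 672 bases in Cldn19-201 and 633 bases in Cldn19-202. The antisense gene Gm12927 overlaps Cldn19 and shares 9.85% of Cldn19-201, with 21 counts in library 2 and 1 count in library 1. Reads of the gene and of its antisense partner could not be told apart without strand.

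The direction of Cldn19 depended on the GC content given to the gene. Set against other genes with the 59.7% GC of Cldn19-201, its log2 ratio of 2.16 became -2.67 and was called lower. Set against genes with the 53.8% GC of Cldn19-202, the transcript that led in library 1, it was 0.49 and not called, an alternative chosen after the isoform shares were seen.

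Cldn14 was at or near 0. It had 0.32 TPM from 3 counts in library 2, against 0 TPM from 0 counts in library 1. Since up to 3 counts are compatible with a count of 0, no difference was detectable at this depth and no ratio is given. Markers of the thick ascending limb (Umod, Slc12a1, Egf) were at TPM 1 or more in both libraries for 3 of 3, with none at 0. They summed to 3924 TPM in library 2 and 998 TPM in library 1. On TMM-scaled counts their log2 ratios were 1.43 (Umod), 0.36 (Egf) and -0.86 (Slc12a1). The part of these markers in the claudin values of this segment was not tested.

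In the distal nephron and collecting duct, Cldn8 stood far above the others. Cldn3, Cldn4, Cldn7 and Cldn8 summed to 121 TPM in library 2, against 83.6 TPM in library 1. With mitochondrial genes left out of the TPM sum the order turned, to 150 TPM in library 2 and 173 TPM in library 1. Cldn8 and Cldn4 together form the paracellular chloride route of the collecting duct. Cldn8 had 73.4 TPM in library 2, against 81.0 TPM in library 1, a mean of 77.2 ± 5.33 TPM (SD, n = 2). Library 2 was the lower, and with mitochondrial genes left out of the sum the levels were 91.6 TPM in library 2 and 168 TPM in library 1. Counts of 2618 in library 2 and 5410 in library 1 gave a TMM-scaled ratio of 0.353 (95% counting interval 0.337 to 0.370), called 2.83-fold lower in library 2, with an adjusted p too small for double precision. The call was lost on total counts (log2 ratio -0.60), and the sign turned once the GC trend was removed (0.14).

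Cldn4 had 14.7 TPM in library 2, against 0.14 TPM in library 1, a mean of 7.43 ± 10.3 TPM (SD, n = 2). On 392 counts in library 2 and 7 counts in library 1 it was called higher in library 2, at 40.8-fold (95% counting interval 19.6 to 102, adjusted p = 3.51e-81, exact binomial test on TMM-scaled counts). It was also called higher with the GC trend removed, at a log2 ratio of 1.87 in place of 5.27. Both ratios rest on the 7 counts of library 1.

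Cldn3, a claudin that tightens the junction, had 10.9 TPM in library 2, against 0.03 TPM in library 1, a mean of 5.45 ± 7.66 TPM (SD, n = 2). This rested on 191 counts in library 2 and 1 count in library 1, a ratio of 139 with a 95% counting interval of 24.7 to 5528. It was called higher in library 2 (adjusted p = 1.71e-43, exact binomial test on TMM-scaled counts). With the GC trend removed the log2 ratio was 0.52 and was not called (adjusted p = 0.842). Cldn3-201 had the highest GC content of the members' leading transcripts, at 62.7%. The antisense gene Wbscr25, which overlaps it by 40 bases, had 0 counts in both libraries.

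Cldn7 lies along the sides of collecting duct cells as well as in the junction, and mice without it waste salt. It had 21.7 TPM in library 2, against 2.49 TPM in library 1, a mean of 12.1 ± 13.6 TPM (SD, n = 2). Counts of 386 in library 2 and 88 in library 1 gave a ratio of 3.20 (95% counting interval 2.53 to 4.08, adjusted p = 2.99e-27, exact binomial test on TMM-scaled counts), called higher in library 2. Relative to genes of like GC content the sign turned, to a log2 ratio of -1.82, called lower. Cldn7-201 led in both libraries, with 90.5% of the gene's TPM in library 2 and 100% in library 1, and Cldn7-203 held 8.42% in library 2 and 0% in library 1.

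Summed marker TPM of the cell types in which these 4 claudins are found was higher in library 2, though not for each marker. Distal convoluted tubule markers (Slc12a3, Pvalb, Trpm6, Emx1) summed to 320 TPM in library 2 and 10.1 TPM in library 1, with 3 of 4 at TPM 1 or more in both. Connecting tubule markers (Calb1, Klk1, S100g) summed to 6449 TPM in library 2 and 1033 TPM in library 1, with 3 of 3 at that level in both. Klk1 carried most of that sum, with 4721 TPM in library 2, against 217 TPM in library 1, while Calb1 went the other way, with 124 TPM in library 2, against 193 TPM in library 1. Principal cell markers (Aqp2, Aqp3, Scnn1g, Hsd11b2) summed to 376 TPM in library 2 and 25.8 TPM in library 1, with 3 of 4 at TPM 1 or more in both. Intercalated cell markers (Atp6v1b1, Atp6v1g3, Slc4a1, Slc26a4, Rhcg) summed to 294 TPM in library 2 and 47.2 TPM in library 1, with 5 of 5 at that level in both. Urothelium, another tight epithelium that whole kidney can hold, had markers (Upk1a, Upk1b, Upk2, Upk3a, Krt20) that summed to 15.3 TPM in library 2 and 1.65 TPM in library 1. Of its 5 markers 1 reached TPM 1 in both libraries and 1 was at 0 in library 1. With the GC trend removed, 2 of 4 distal convoluted tubule markers were called higher. So were 1 of 3 connecting tubule and 2 of 5 intercalated cell markers, and in these lists 0 were called lower. Of the 4 principal cell markers 0 were called higher and 1 lower, Hsd11b2 at a log2 ratio of -1.72. The 1 urothelium marker with a value was not called. Over all genes tested there, 12.6% were called higher and 10.4% lower. The part of these cell types in the claudin values was not tested.

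Outside the tubule, Cldn1 marks the parietal cells of Bowman's capsule. It had 22.5 TPM in library 2, against 25.6 TPM in library 1, a mean of 24.0 ± 2.20 TPM (SD, n = 2). With mitochondrial genes left out it had 28.0 TPM in library 2, against 52.9 TPM in library 1. Counts of 1130 in library 2 and 2411 in library 1 gave a TMM-scaled ratio of 0.342 (95% counting interval 0.318 to 0.367, adjusted p = 3.86e-211, exact binomial test), called 2.93-fold lower in library 2. The call was lost on total counts, at a log2 ratio of -0.65, and once the GC trend was removed, at -0.13.

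**Figure D2:**
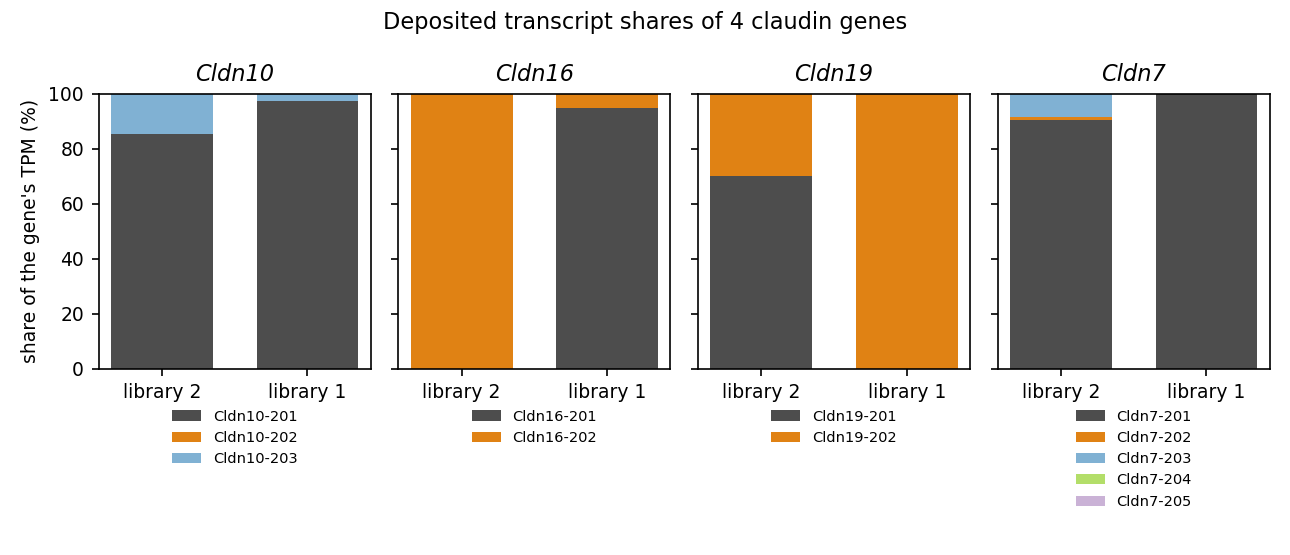
Share of each gene's TPM (percent) held by its transcripts in library 2 and library 1, for 4 claudin genes. The leading transcript is the same in both libraries for Cldn10 and Cldn7, and differs for Cldn16 and Cldn19.

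Across the family the members had 24 transcripts, with 6 members having more than 1. Of these 6, Cldn14 had no counts in library 1, and of the other 5 the leading transcript was the same in both libraries for Cldn2, Cldn7 and Cldn10. The shares are estimates from short reads, deposited with no error, and counts behind them were lowest for Cldn16 and Cldn7 in library 1.

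The ratio between the libraries followed GC content among the members too. Spearman's rho between the GC content of the leading transcript and the log2 ratio was 0.933 over the 9 tested members, a description over genes that share both libraries. Cldn8 (40.6% GC), Cldn1 (42.3%), Cldn10 (44.5%) and Cldn2 (48.8%) had ratios below 1 on TMM scaling. Cldn16 (48.8%), Cldn4 (56.8%), Cldn7 (57.0%), Cldn19 (59.7%) and Cldn3 (62.7%) had ratios above 1. Removing the smooth trend over all genes with at least 100 counts lowered the SD of the members' log2 ratios to 1.44, from 2.91 before, and that of all genes to 1.19, from 2.43. The call rule then took 4 of the 9 members, Cldn16 and Cldn4 higher and Cldn19 and Cldn7 lower in library 2, against 23.1% of the 11092 genes tested (12.6% higher and 10.4% lower).

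**Figure D3:**
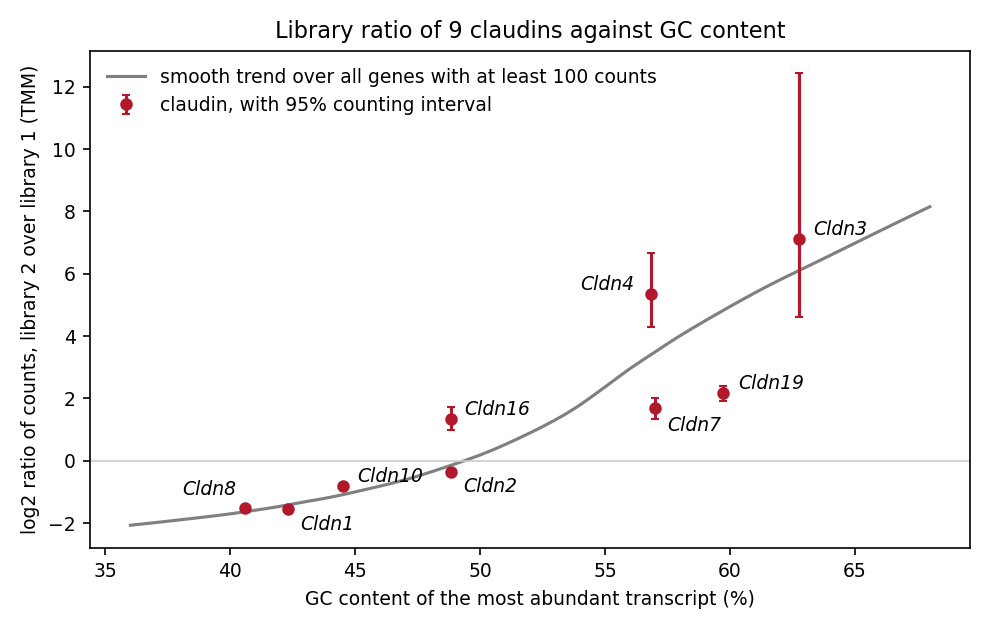
Log2 ratio of TMM-scaled counts without a prior count, library 2 over library 1, against GC content of the most abundant transcript (percent) for the 9 tested claudins, with 95% counting intervals and the smooth trend over all genes as a line. Cldn8, Cldn1, Cldn10 and Cldn2 lie near the line, the interval of Cldn3 crosses it, Cldn16 and Cldn4 above it, and Cldn7 and Cldn19 below it.

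Other claudins added less RNA in sum, most of it from Cldn12. Of 15 further claudin genes in the tables, 2 reached TPM 1 in both libraries, and they summed to 71.3 TPM in library 2 and 47.1 TPM in library 1. Cldn12, a claudin tied to calcium transport, had 45.8 TPM in library 2, against 45.2 TPM in library 1. In both libraries this was above every member but Cldn10, Cldn2 and Cldn8. Cldn15, a sodium pore of the gut, had 11.8 TPM in library 2, against 1.00 TPM in library 1. Cldn5, the claudin of endothelium, had 222 counts in library 2 and 0 counts in library 1, which is at least 53.9-fold higher when 3 counts stand for the 0 of library 1. Endothelial markers (Emcn, Plvap, Pecam1, Eng, Cdh5) summed to 283 TPM in library 2 and 83.7 TPM in library 1, with 5 of 5 at TPM 1 or more in both. Emcn held most of the library 1 sum, with 72.9 TPM in library 2 and 71.9 TPM in library 1. Its log2 ratio on TMM-scaled counts was -1.44, while the other markers ran from 1.27 (Pecam1) to 5.04 (Eng). The part of these markers in the Cldn5 values was not tested. Of the 6 other claudins tested, 3 were called higher and 1 lower in library 2, beside 35.5% and 24.9% of all genes tested. Their median log2 ratio was 1.25. The median is the same with Cldn5 at its bound. Those called were Cldn15, Cldn5 and Cldn6 (higher) and Cldn12 (lower). With the GC trend removed, 3 of these genes had a value, and Cldn5 was called higher. Cldn12 and Cldn15 were not called there, at log2 ratios of -0.27 and 0.42. Over all genes tested there, 12.6% were called higher and 10.4% lower.

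RNA of most listed genes whose proteins work with claudins was detected in both libraries. Of 14 transmembrane partners, 12 reached TPM 1 in both libraries. Of the 13 tested, 3 were called higher and 2 lower in library 2, beside 35.5% and 24.9% of all genes tested. Their median log2 ratio was 0.34. F11r, the junctional adhesion molecule JAM-A, had 58.5 TPM in library 2, against 12.9 TPM in library 1. Igsf5, a related adhesion molecule, had 42.4 TPM in library 2, against 14.7 TPM in library 1, and neither was called. Crb3, a polarity protein of the apical membrane, had 43.9 TPM in library 2, against 3.54 TPM in library 1 and was called higher. With the GC trend removed Crb3 was not called, at a log2 ratio of -0.02. On that scale 1 of the 13 partners with a value was called higher and 1 lower, beside 12.6% and 10.4% of all genes tested there. Ocln, the junction protein occludin, chosen after its values were seen, had 17.6 TPM in library 2, against 11.6 TPM in library 1 and was not called.

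Beneath the membrane, 22 of 24 scaffold and polarity genes reached TPM 1 in both libraries. All 24 were tested, and 8 were called higher and 5 lower in library 2, beside 35.5% and 24.9% of all genes tested. Their median log2 ratio was 0.62, the same with Pard6a, at 0 counts in library 1, set to its bound. Cgnl1, or paracingulin, had 135 TPM in library 2, against 30.9 TPM in library 1. Afdn, the adherens junction adaptor afadin, had 42.1 TPM in library 2, against 27.9 TPM in library 1, and neither of these genes was called. Amotl2, an angiomotin family protein, had 36.6 TPM in library 2, against 7.74 TPM in library 1 and was called higher. With the GC trend removed Amotl2 was called lower, at a log2 ratio of -1.09. On that scale 0 of the 22 listed genes with a value were called higher and 2 lower. Over all genes tested there, 12.6% were called higher and 10.4% lower. Tjp1, which encodes the scaffold ZO-1 that anchors claudins to actin and was chosen after its values were seen, had 19.5 TPM in library 2, against 14.3 TPM in library 1. It was called lower on TMM-scaled counts, at a log2 ratio of -1.18, and was not called with the GC trend removed, at -0.54.

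**Figure D4:**
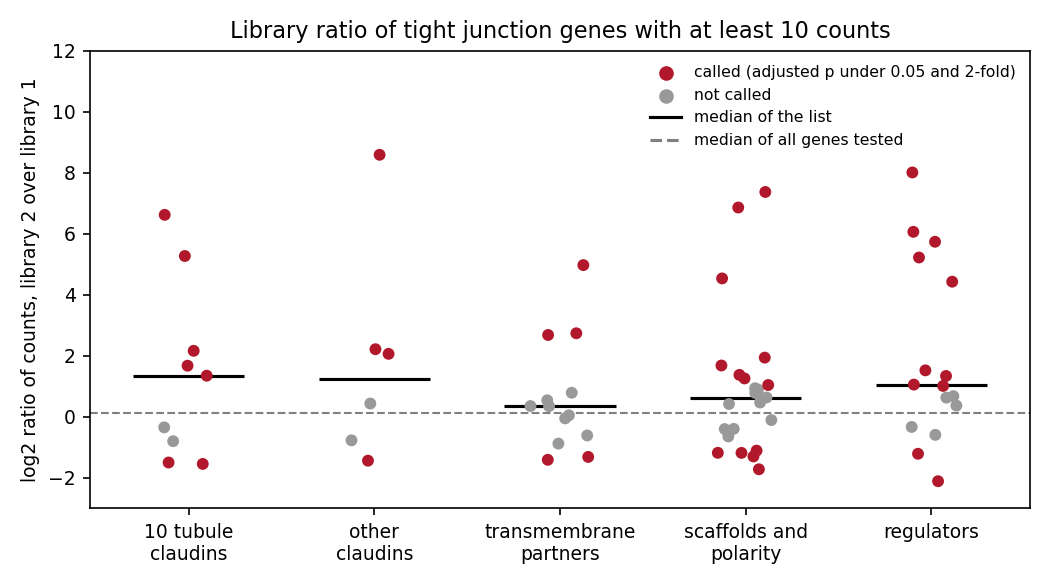
Log2 ratio of TMM-scaled counts with a prior count of 0.5, library 2 over library 1, for each tested gene of the 10 claudins and of 4 lists of related genes, with called genes in red, list medians as bars and the median of all genes tested as a dashed line. The bars stand at 1.34 for the 9 tested members, 1.25 for other claudins, 0.34 for transmembrane partners, 0.62 for scaffolds and 1.03 for regulators, against 0.12 for all genes. The highest point of the other claudins is Cldn5, which had 0 counts in library 1 and is drawn at a value set by the prior count.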

How the data were processed

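Polyadenylated RNA of 1 kidney sample was sequenced in 2 libraries. The deposited expected counts and posterior mean counts are not normalized, per the file headers. TPM was deposited per length and scaled to a fixed sum, and transcript shares were deposited as a percent of each gene, per the file headers. The build mm10 and annotation release M4 are named in the text deposited beside the tables. What aligned and quantified the reads was not given in the sources used here.

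Names, positions, transcript sequences and coding spans were read from GENCODE M21, which uses that assembly too, and 42462 of 43346 gene rows matched. The 884 unmatched rows held 0.0853% of expected counts in library 2 and 0.0741% in library 1. The 26345 rows for spike-ins and short RNAs were left out.

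Levels are given per library and as mean ± SD. TMM (edgeR 4.0.16, R 4.3.3) set the scale of the rounded expected counts. Library 2 was set against library 1 by a two-sided exact conditional binomial test on genes with at least 10 counts in Python 3.11.15 (scipy 1.17.1), and p-values were adjusted over all of them by Benjamini-Hochberg. Calls needed an adjusted p below 0.05 and a log2 ratio of at least 1 in size, with a prior count of 0.5. Folds with intervals used no prior count. Intervals (95%) and floors (3 counts) cover counting error only, since no molecular identifiers are given. Quasi-likelihood fits need residual degrees of freedom, of which there were none. The test was checked on simulated Poisson counts with no GC trend and no spread beyond counting error. That check does not cover the GC trend or other differences between these libraries.

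GC content was taken from the most abundant transcript with a length within 10% of the reference, and 92.1% of genes with at least 100 counts had one. The trend of the ratio on it was a lowess fit (statsmodels 0.14.6, span 20%). Coding sequences were aligned with Biopython 1.88, and shared stretches were searched with blastn 2.17.0. A planned protein alignment was not run and is replaced by that of coding sequences. Alternatives were DESeq2 1.42.0 size factors, total counts, other filters and priors, posterior means, mitochondrial genes left out, and GC removal.

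All 10 members were named, with the 3 genes of highest mean TPM in each list and a few others marked as chosen after their values were seen. The members and lists were chosen with earlier results of these data known.

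A few further results are not reported here.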

Additional observations from a re-analysis of the deposited data

How the results depend on the processing

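With 1 sample of 2 libraries, leaving out a library left no comparison, and no value for the calls or the shared leading transcript. No paired analysis was possible because there is 1 group only. Leaving out each library in turn gave 7 to 9 members at TPM 1 and a summed claudin level of 434.8 to 700.2 TPM. Leaving mitochondrial genes out of the TPM sum raised the mean level of both libraries to 887 TPM, against 567 TPM. The order of the libraries turned there, with library 1 the higher in summed claudin level. A line of TPM 5 left 4 members in place of 7. The count of 7 called members was also 7 with DESeq2 size factors, no count filter, a filter of 100 counts, posterior mean counts and a prior count of 2. It was 5 on total counts, which turned the log2 ratios of Cldn2 to 0.55 and of Cldn10 to 0.10, and 9 without the fold line. Removing the GC trend left 4 members called (2 higher and 2 lower) and 2559 of 11092 genes, against 9403 of 15553. That fit also took only genes with a GC value and at least 100 counts, and the filter of 100 counts alone gave 7568 of 12048. It turned the log2 ratios of Cldn10 to 0.28, of Cldn8 to 0.14, of Cldn7 to -1.82 and of Cldn19 to -2.67. At the GC content of the transcript that led in library 1, an alternative chosen after seeing the data, 3 members were called (2 higher and 1 lower), with Cldn10 at 0.28, Cldn8 at 0.14 and Cldn7 at -1.82, and Cldn19 not called at 0.49. The cause of these shifts was not tested. The leading transcript was shared by 3 of 5 genes with posterior means as well. Ratios of Cldn14, Cldn3 and Cldn4 rest on 0, 1 and 7 counts in library 1, which had more counts in all than library 2.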

Other observations

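Genes known to regulate kidney claudins were present in both libraries at widely different ratios. All 16 of the list were tested, and 13 reached TPM 1 in both. Of the 16, 9 were called higher and 2 lower in library 2, beside 35.5% and 24.9% of all genes tested. The median log2 ratio of the list was 1.03, and its shares were not tested against those of all genes. Egf, made in the thick ascending limb and also one of its markers here, had 719 TPM in library 2, against 217 TPM in library 1 and was not called. Wnk1, a kinase of distal salt transport, had 303 TPM in library 2, against 394 TPM in library 1 and was called lower. Hnf4a, a proximal tubule transcription factor, had 224 TPM in library 2, against 34.2 TPM in library 1 and was called higher.

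The following genes were chosen after their values were seen. Casr, the calcium-sensing receptor through which Cldn14 is induced, had 22.9 TPM in library 2, against 4.54 TPM in library 1 and was called higher, while Cldn14 had 3 counts and 0 counts in the same libraries. Pth1r, the parathyroid hormone receptor, had 243 TPM in library 2, against 2.54 TPM in library 1 and was called higher. Klhl3, whose protein brings claudin-8 to degradation, had 14.2 TPM in library 2, against 1.92 TPM in library 1 and was called higher, while Cul3, its ubiquitin ligase partner, had 69.2 TPM in library 2, against 119 TPM in library 1 and was called lower. With the GC trend removed 4 genes of the list were called higher and 0 lower, out of 14 with a value. Over all genes tested there, 12.6% were called higher and 10.4% lower. Casr, Pth1r, Hnf4a, Cul3 and Wnk1 were not called there, and Klhl3 had no GC value.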
